A study of Mus musculus with 4 samples.

Results

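The transcripts of 9 nuclear lysine acetyltransferases other than Hat1 were followed in cells isolated as microglia from mouse embryos at embryonic day 14. The genes were chosen by name: Kat2a and Kat2b of the GCN5 family, Kat5, Kat6a, Kat6b, Kat7 and Kat8 of the MYST family, and the pair Ep300 and Crebbp, which encode p300 and CBP. All 9 were found among the 26051 features of the count table, and all 9 had enough counts to be tested with the 15840 genes that passed the filter on low counts. The study deleted Hat1, itself a histone acetyltransferase, conditionally in microglia with Cre recombinase and loxP sites. The 2 libraries titled ko (numbers 1 and 3) were compared with the 2 titled ff (numbers 2 and 5), which are taken as the comparison group. The labels give neither the Cre driver, the deleted exons, the strain nor the meaning of ff, and do not say whether a library came from 1 embryo or several, so the p-values reflect only the spread between libraries, which may be technical. The comparison asks whether transcripts of the other acetyltransferases differ between isolates with and without the Hat1 deletion.

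Lysine acetyltransferases move an acetyl group from acetyl-CoA onto lysines of histones and other proteins. Hat1 acetylates newly made histone H4 before it is deposited on DNA, whereas the GCN5, MYST and p300/CBP enzymes act mainly on chromatin as parts of large complexes or as coactivators recruited by transcription factors. In macrophages p300 and CBP are known as marks and cofactors of active enhancers, including those of inflammatory and interferon-responsive genes.

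Total counts per library ran from 14814846 to 18990917, and the spread inside each group exceeded counting noise (chi-square per degree of freedom 7.25 for the ff pair and 13.9 for the ko pair). Hat1 had 44.3 and 71.4 CPM (counts relative to library size, with libraries scaled by the trimmed mean of M-values) for ff libraries 2 and 5, and 39.2 and 36.6 for ko libraries 1 and 3. Its log2 fold change, ko minus ff, was -0.61 ± 0.23 (SE) with an adjusted p of 0.298 by edgeR's quasi-likelihood test, so the deletion was not visible as a called loss of the whole-gene count. Of 10 microglial markers, 9 were in the table and none of these was at 0 in any library. Ko library 1 held Y-linked transcripts (3188 counts of Ddx3y, 3 of Xist), and the other 3 libraries held 2847 to 3986 counts of Xist and no Ddx3y. For Kat2a, Crebbp, Kat6a, Ogt, Phf20 and Brd3 the log2 fold changes are also given without that library. Other results are not all given without it.

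None of the 9 acetyltransferase genes passed the threshold of an adjusted p of 0.05, beside 1.70% of all genes tested (1.19% higher and 0.518% lower in ko). Kat2a and Crebbp lay closest to it, and they lay on opposite sides: Kat2a was 1.44-fold higher and Crebbp 1.44-fold lower in the ko libraries. The other 7 genes had log2 fold changes between -0.13 and 0.14. At an unadjusted p under 0.05 the count was 2 of 9, beside 16.2% of all genes tested. DESeq2 called 1 of 9, Crebbp, as lower, beside 4.22% of its tested genes (2.54% higher, 1.68% lower). Fits with 1 library left out keep 1 library in 1 group, and the number of calls over all genes changed with them. Their log2 fold changes ran from 0.41 to 0.62 for Kat2a and from -0.71 to -0.35 for Crebbp. Limma-voom called 0 of 9, beside 1.54% (1.07% higher, 0.467% lower). The median log2 fold change of the 9 genes was 0.01, as was that of all genes tested. With 2 libraries in each group an exact permutation test over libraries could give no p under 0.333, so every call leans on a spread shared across genes.

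**Figure D1:**
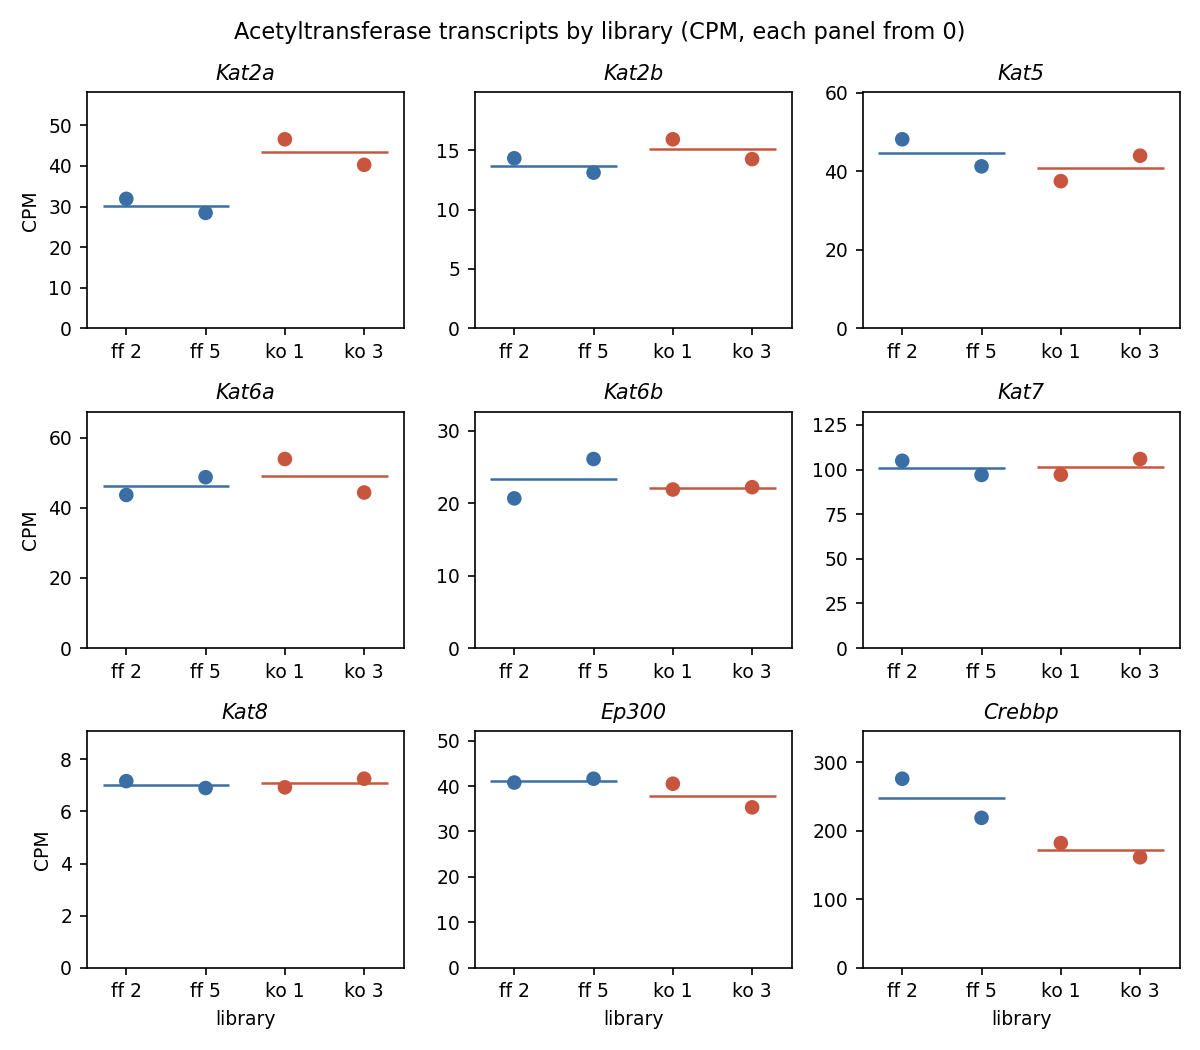
CPM of each acetyltransferase gene (vertical axes, each from 0) in the 4 libraries, with ff in blue and ko in red; points are single libraries and lines are group means of n = 2. Kat2a lies higher in both ko libraries, Crebbp and Ep300 lie lower in both, and the groups overlap in the other 6 genes. Groups lay apart in 3 of these 9 genes, beside 49.6% of all genes tested. For Ep300 they are nearly level, at 40.5 CPM in ko library 1 and 40.8 in ff library 2.

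Kat2a encodes GCN5, the catalytic subunit of the SAGA and ATAC coactivator complexes, which acetylates histone H3. It had 31.9 CPM in ff library 2, 28.4 in ff library 5, 46.6 in ko library 1 and 40.3 in ko library 3. Both ko libraries lay above both ff libraries, as groups lay apart in 49.6% of all genes tested. Means were 30.2 ± 2.45 CPM for ff and 43.4 ± 4.45 CPM for ko (SD over 2 libraries each). The log2 fold change of 0.53 had a 95% interval of 0.24 to 0.81, and edgeR's adjusted p was 0.0942. Leaving out ko library 3 gave 0.62 (edgeR adjusted p = 0.00737). Leaving out ko library 1, which held the Y-linked transcripts, gave 0.41 (0.0791).

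In the RefSeq annotation of GRCm38.p6 the gene next to Kat2a is Dhx58, which GENCODE M21 places on the same strand. Dhx58 encodes LGP2, an RNA helicase of the RIG-I-like receptor family and a known interferon-induced gene; it and Hspb9, the neighbour on the other side, were singled out after values were seen. It had 34.6 and 31.2 CPM in ff and 68.5 and 63.1 in ko, which edgeR fitted as 1.00 ± 0.10 (log2, SE; adjusted p = 0.00254). Dhx58 thus rose 2.00-fold where its neighbour Kat2a was 1.44-fold higher. Hspb9 had 1.16 and 0.870 CPM in ff and 1.12 and 1.95 in ko, and its groups overlapped. The annotated Kat2a and Dhx58 do not overlap, and the strand setting of the counting is not given in the sources used here. Whether reads of either gene entered the count of the other was not tested.

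Kat2b encodes PCAF, the paralog of GCN5 that takes its place in the same complexes. It had 14.3 and 13.1 CPM in ff and 15.9 and 14.2 in ko, and the groups overlapped. Its log2 fold change was 0.14 with a 95% interval of -0.23 to 0.51. The ratio of Kat2a to Kat2b counts, which does not depend on how libraries are scaled, was 2.23 in ff library 2 and 2.17 in ff library 5, against 2.93 in ko library 1 and 2.83 in ko library 3. The ratio was thus 1.31-fold higher in ko, with a difference of 0.39 on the log2 scale, SDs of 0.03 (ff) and 0.04 (ko) and an exact permutation p of 0.333, two-sided, the smallest this design allows. Exact 95% counting intervals were 1.89 to 2.63 and 1.84 to 2.57 in ff and 2.56 to 3.35 and 2.43 to 3.31 in ko, so the intervals of both ff libraries overlapped those of both ko libraries.

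Crebbp encodes CBP, a coactivator with a bromodomain that is recruited by CREB and many other transcription factors. It was the most abundant of the 9 genes by counts, counted 4048 times in ff library 2, 3525 times in ff library 5, 3420 times in ko library 1 and 2559 times in ko library 3. This came to 276 and 219 CPM in ff and 182 and 161 CPM in ko. Both ko libraries lay below both ff libraries, as groups lay apart in 49.6% of all genes tested. The ff libraries differed from each other by more than the ko libraries did. Means were 247.5 ± 40.3 and 172 ± 14.7 CPM (SD over 2 libraries each). Its log2 fold change of -0.53 had a 95% interval of -0.82 to -0.23 (edgeR adjusted p = 0.112). DESeq2 gave an adjusted p of 0.00530 at a log2 fold change of -0.54. The value depended on single libraries: it was -0.35 without ff library 2 (adjusted p = 0.265 by edgeR), -0.71 without ff library 5 (0.00257), -0.63 without ko library 1 (6.13e-05) and -0.45 without ko library 3 (0.0865).

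The Crebbp transcript is the longest of the 9, at 10.82 kb in GENCODE M21, and log2 fold changes varied with transcript length over all genes. The 838 tested genes with a transcript of 8 kb or more had a median of -0.09 and a 5th to 95th percentile range of -0.62 to 0.55, and the 3155 genes with one under 2 kb had a median of 0.11. Ep300 and Kat6a, with transcripts of 9.57 and 9.11 kb, had log2 fold changes of -0.12 and 0.09. Once length and GC content entered the fit as an offset, a choice made after seeing the data, Crebbp had a log2 fold change of -0.45 (edgeR adjusted p = 0.181) and Kat2a 0.47 (0.130).

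Ep300 encodes p300, the close paralog of CBP with the same domains. It had 40.8 and 41.6 CPM for ff libraries 2 and 5, and 40.5 and 35.3 for ko libraries 1 and 3. The groups did not overlap, as in 49.6% of all genes tested, but ko library 1 lay next to ff library 2. For Ep300 the log2 fold change of -0.12 had a 95% interval of -0.38 to 0.14 (edgeR adjusted p = 0.640). Crebbp exceeded Ep300 6.77-fold and 5.26-fold in counts in the ff libraries and 4.49-fold and 4.57-fold in the ko libraries. The log2 ratio of Ep300 to Crebbp was -2.58 ± 0.26 for ff and -2.18 ± 0.02 for ko (SD, n = 2 each; exact permutation p = 0.333, two-sided). The difference of 0.40 became 0.22 without ff library 2 and 0.58 without ff library 5.

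**Figure D2:**
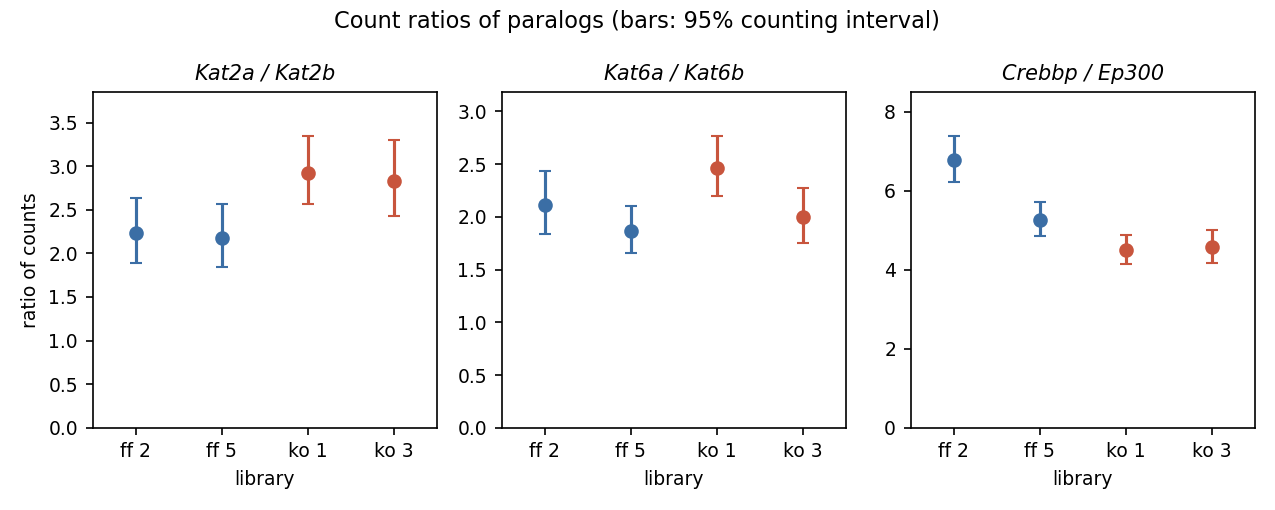
Ratio of the counts of 3 paralog pairs (vertical axes, each from 0) in each of the 4 libraries, ff in blue and ko in red; bars are exact 95% counting intervals. Kat2a to Kat2b lies between 2.17 and 2.23 in ff and between 2.83 and 2.93 in ko, Crebbp to Ep300 between 5.26 and 6.77 and between 4.49 and 4.57, and Kat6a to Kat6b overlaps between groups.

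To show the start regions of the genes that lay closest to the threshold, the RefSeq promoters of Kat2a and Crebbp (GRCm38.p6, 250 bases before to 50 after the annotated start, minus strand) are printed 5′ to 3′ with CG dinucleotides in capitals. That of Kat2a lies at chr11:100712418-100712717 and that of Crebbp at chr16:4213355-4213654.
Kat2a: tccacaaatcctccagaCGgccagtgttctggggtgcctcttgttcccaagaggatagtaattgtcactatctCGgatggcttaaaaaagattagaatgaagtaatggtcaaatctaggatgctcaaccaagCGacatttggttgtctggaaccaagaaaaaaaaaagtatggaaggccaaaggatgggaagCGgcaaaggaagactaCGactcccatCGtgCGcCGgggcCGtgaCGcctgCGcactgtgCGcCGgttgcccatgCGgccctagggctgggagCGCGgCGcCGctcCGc
Crebbp: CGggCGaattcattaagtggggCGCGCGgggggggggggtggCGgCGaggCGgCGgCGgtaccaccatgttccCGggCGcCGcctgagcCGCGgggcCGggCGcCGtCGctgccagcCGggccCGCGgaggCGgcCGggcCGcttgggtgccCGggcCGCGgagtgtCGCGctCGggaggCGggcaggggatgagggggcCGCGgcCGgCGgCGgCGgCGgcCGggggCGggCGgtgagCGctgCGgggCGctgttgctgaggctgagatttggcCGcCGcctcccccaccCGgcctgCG
The windows hold 19 and 49 CG dinucleotides, against a median of 7 over the 32851 promoters of the table. Those of the other acetyltransferase genes hold between 5 (Kat8) and 34 (Kat6b). Promoters were found for 8 of the 9 genes (12 windows), and Kat6a had none in the table. A core of the interferon-stimulated response element, spelled GAAANNGAAA or TTTCNNTTTC to cover both strands, was present in 3.44% of all promoters. Neither the Kat2a nor the Crebbp window held it. One window of Kat5 did, here as a stretch of 30 bases at chr19:5610112-5610141 (GRCm38.p6, minus strand) with the match in capitals. The match itself begins 37 bases before the annotated start.
Kat5: ttctcaagtgTTTCCCTTTCaaacagcttc
A match is a description of the letters and no evidence of binding.

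Kat5 encodes TIP60, the acetyltransferase of the NuA4 complex, known for its part in DNA repair and transcription. Its levels were 48.2 and 41.3 CPM for ff libraries 2 and 5 and 37.5 and 44.0 for ko libraries 1 and 3, so the groups overlapped. Kat5 had a log2 fold change of -0.13 with a 95% interval of -0.43 to 0.16, and between -0.27 (without ff library 5) and -0.02 (without ff library 2) when 1 library was left out. Kat7 encodes HBO1, which acetylates histone H3 and H4 and is tied to replication origins. It had 105 and 97.0 CPM in ff and 97.1 and 106 in ko, and its log2 fold change of 0.01 had the narrowest 95% interval of the 9 genes, -0.19 to 0.21. The interval leaves room for a Kat7 level in ko between 0.875 and 1.16 of that in ff.

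Kat6a and Kat6b encode MOZ and MORF, paralogs that share the subunits Brpf1, Ing5 and Meaf6 and acetylate histone H3; MOZ is known as a regulator of blood stem cells. Kat6a had 43.6 and 48.7 CPM in ff and 53.9 and 44.3 in ko, with a log2 fold change of 0.09 (95% interval -0.20 to 0.37). It was -0.07 without ko library 1. Kat6b had 20.7 and 26.1 CPM in ff and 21.9 and 22.2 in ko, with a log2 fold change of -0.09 (95% interval -0.43 to 0.26), and of 0.07 without ff library 5. Groups overlapped for both genes. The ratio of Kat6a to Kat6b was 2.11 and 1.87 in ff and 2.46 and 2.00 in ko, and it also overlapped (exact permutation p = 0.667, two-sided). Its difference on the log2 scale was 0.16, and 0.0083 without ko library 1.

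Kat8 encodes MOF, the main acetyltransferase of histone H4 within chromatin, which works in the MSL and NSL complexes. It was the least abundant by counts, with 105 to 130 counts per library. This came to 7.16 and 6.89 CPM in ff and 6.92 and 7.25 in ko. The log2 fold change of 0.01 had a 95% interval of -0.47 to 0.49, the widest of the 9 genes.

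Over the 7 genes other than Kat2a and Crebbp, edgeR's adjusted p ran from 0.639 to 0.984. Their 95% intervals together reached from 0.724-fold to 1.43-fold, so a difference of 2-fold in either direction lay outside each of them. The intervals lean on a spread shared across genes. On simulated data the same procedure made more false calls than its threshold allows. Differences inside these intervals are not shown to be absent. In bulk samples, more RNA per cell and more cells of a type cannot be told apart.

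**Figure D3:**
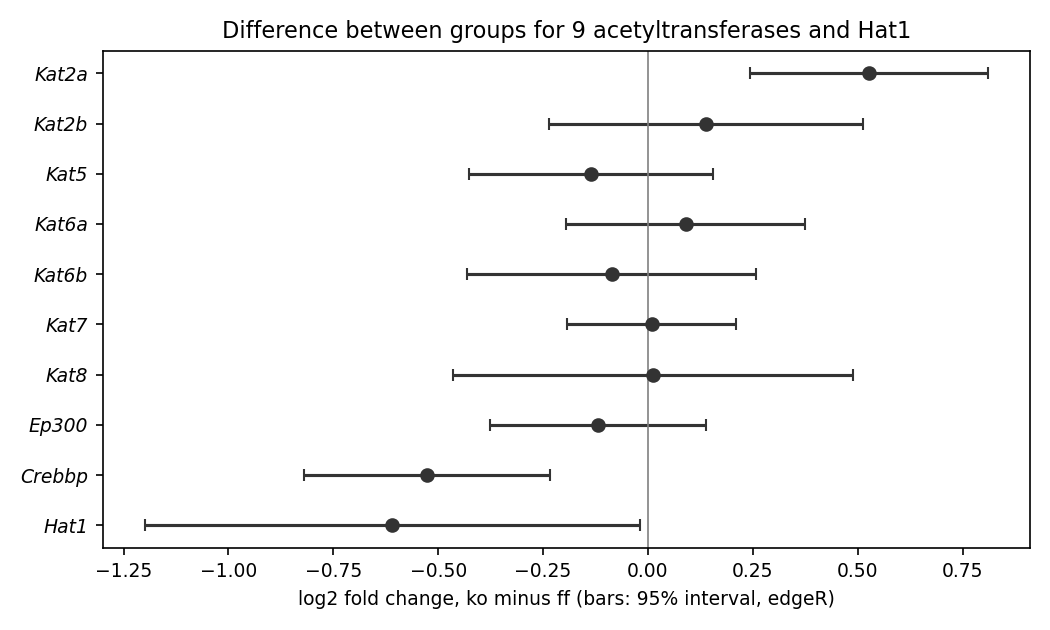
Log2 fold change, ko minus ff, of the 9 acetyltransferase genes and of Hat1 (horizontal axis), with 95% intervals from edgeR over n = 2 libraries in each group. The intervals of Kat2a, Crebbp and Hat1 leave out 0 before adjustment, and those of the other 7 genes include it.

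Taken as a sum, the 9 genes came to 587.5 and 522.0 CPM for ff libraries 2 and 5 and to 502.4 and 474.9 for ko libraries 1 and 3. Crebbp made up 47.0% (exact 95% binomial interval 45.9 to 48.0) and 41.9% (40.9 to 43.0) of these counts in ff, and 36.2% (35.3 to 37.2) and 34.0% (32.9 to 35.1) in ko. Without Crebbp the sums of the other 8 were 311.5 and 303.1 CPM in ff and 320.3 and 313.6 in ko. The 5 MYST genes summed to 224.5, 219.9, 217.3 and 223.7 CPM in the same order, with overlapping groups. The intervals cover counting error only.

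Levels of different genes were compared as CPM per kilobase of the longest transcript in GENCODE M21, an annotation of another build than the counts. In ff the order was Kat7 at 28.3 ± 1.57, Crebbp at 22.9 ± 3.73, Kat5 at 19.9 ± 2.17, Kat2a at 9.23 ± 0.749, Kat6a at 5.07 ± 0.393, Kat8 at 4.45 ± 0.118, Ep300 at 4.31 ± 0.0624, Kat6b at 3.04 ± 0.499 and Kat2b at 2.95 ± 0.184 (SD, n = 2 each). Neighbours whose ff libraries overlapped were Crebbp with Kat5 and Kat6b with Kat2b. Kat8 and Ep300 lay close together, and Kat8 rested on 105 and 111 counts in the ff libraries. In ko, Kat7 again led at 28.5 ± 1.75, and Crebbp at 15.9 ± 1.35 lay below Kat5 at 18.2 ± 2.04, with libraries that overlapped. Kat2a followed at 13.3 ± 1.36, and both of its ko libraries lay below both of Crebbp. On this scale Hat1 stood at 30.5 ± 10.1 in ff and 20.0 ± 0.968 in ko.

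Other genes of the pathway were taken from 9 lists of complex subunits, coactivators, further acetyltransferases, deacetylases, acetyl-lysine readers and acetyl-CoA supply, with 123 distinct genes outside the 9, of which 122 were tested. Of these, 0 rose and 3 fell, which is 2.46% of those tested beside 1.70% of all genes called, 1.19% called higher and 0.518% called lower. The 3 were Ogt, Phf20 and Brd3; on simulated data the same procedure made more false calls than its threshold allows. With 1 library left out, log2 fold changes ran from -0.81 to -0.49 for Ogt, -0.61 to -0.38 for Phf20 and -0.56 to -0.41 for Brd3. Without ko library 1 they were -0.63, -0.54 and -0.54. The number of partner calls is not read from these fits, which keep 1 library in 1 group. The median log2 fold change of the 122 genes was -0.04, against 0.01 over all genes tested.

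Of 11 subunits of the MSL and NSL complexes, which hold Kat8, 2 fell, beside 0.518% of all genes tested. Ogt encodes the enzyme that attaches N-acetylglucosamine to nuclear and cytosolic proteins, is a subunit of NSL and lies on the X chromosome. It fell from 162 and 132 CPM in ff to 92.3 and 95.5 in ko, a log2 fold change of -0.64 ± 0.11 (SE; edgeR adjusted p = 0.0317). It missed the threshold when ff library 2 was left out (-0.49, edgeR adjusted p = 0.0541). Leaving out ko library 1, which held the Y-linked transcripts, gave -0.63. Phf20, the NSL subunit that reads methylated lysines, fell from 173 and 151 CPM to 119 and 112 (log2 fold change -0.49, adjusted p = 0.0481 by edgeR), and missed the threshold without ff library 2 (0.183), with limma-voom (0.0564) and after the length and GC offset (0.0806). The median of the 11 was -0.03.

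Of 16 acetyl-lysine readers 1 fell, beside 0.518% of all genes tested: Brd3, a bromodomain protein of the BET family. It fell from 317.5 and 289.9 CPM to 226.4 and 210.9 (log2 fold change -0.47 ± 0.08, edgeR adjusted p = 0.0356), and missed the threshold without ff library 2 (0.106) and after the length and GC offset (0.0545). The list median was -0.12. In Ogt, Phf20 and Brd3, as in Crebbp, ff library 2 was the highest of the 4 libraries. Since these genes were lower in both ko libraries, their highest had to be an ff library. The share of all genes with ff library 2 highest is not given here.

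The remaining lists held no called gene in either direction. Of the 25 SAGA and ATAC subunits, which work with Kat2a and Kat2b, the most expressed were the deubiquitinase gene Usp22, at 169 ± 0.577 CPM in ff and 154 ± 8.86 in ko, and Supt20, at 128 ± 3.60 and 117 ± 0.917 (SD, n = 2 each). The list median was -0.01, beside 0.53 for Kat2a itself. The 17 NuA4 subunits, partners of Kat5, had a median below 0.01, and the most expressed were Morf4l2, an MRG-family gene on the X chromosome (log2 fold change 0.29, adjusted p = 0.162 by edgeR), and Trrap, the scaffold shared with SAGA (-0.17). The 9 subunits of the MOZ, MORF and HBO1 complexes had a median of -0.05, with the ING-family genes Ing4 and Ing5 at -0.05 and -0.15.

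Among 13 tested partners of p300 and CBP the median was -0.07. The steroid receptor coactivator gene Ncoa3, which is also on the list of further acetyltransferases, had 356 and 312 CPM in ff and 338 and 275 in ko, with overlapping groups. Maml2, a coactivator of Notch signalling that binds p300 and CBP, had 292 and 245.5 CPM in ff and 205 and 173 in ko, a log2 fold change of -0.51 with an edgeR adjusted p of 0.103. The 14 further acetyltransferases had a median of -0.08, with Hat1 the lowest, and Naa50, an acetyltransferase of protein N-termini, at -0.08. The 14 deacetylases outside class IIa had a median of -0.04, with the sirtuin genes Sirt2 and Sirt7 both at -0.04. The 9 genes of acetyl-CoA supply had a median of -0.02, with the acetyl-CoA synthetase gene Acss1 at -0.11 and Acly, the citrate lyase that feeds histone acetylation, at -0.15.

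**Figure D4:**
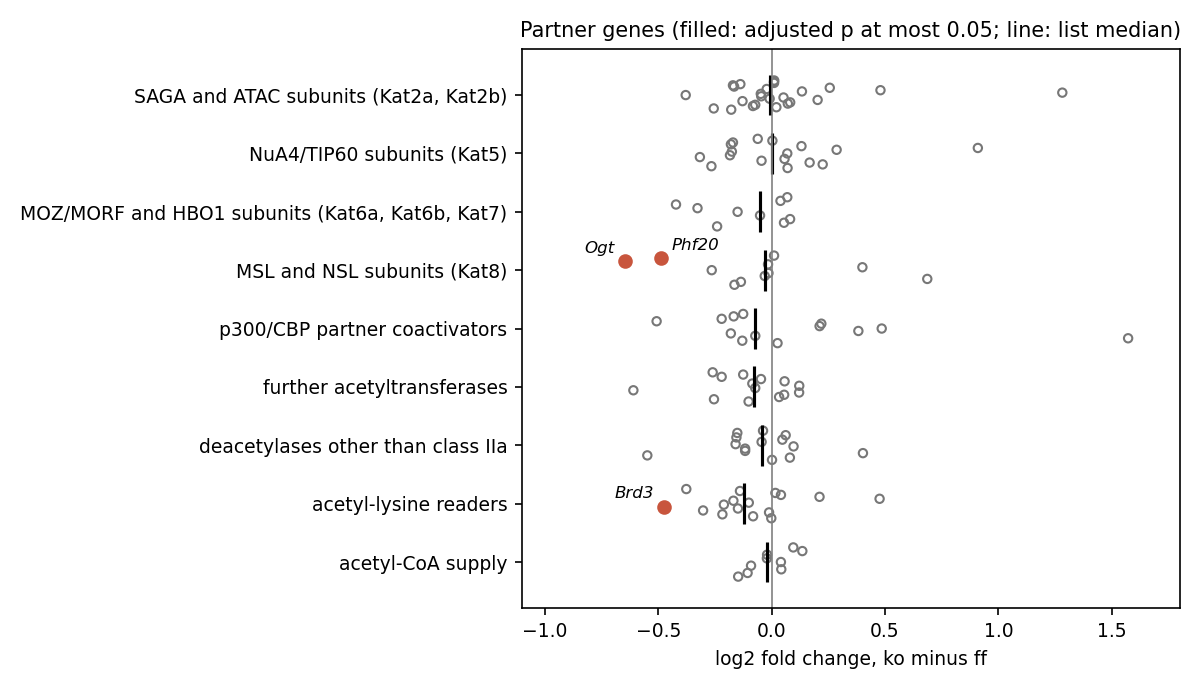
Log2 fold change, ko minus ff (horizontal axis), of the tested genes of each list (rows, one point per gene); filled points passed an adjusted p of 0.05 by edgeR and black lines are list medians. The 3 filled points, Ogt, Phf20 and Brd3, lie between -0.64 and -0.47, and all list medians lie between -0.12 and 0.01.

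Markers of other cells were measured in the same libraries. Some summed levels lay apart between the groups, as single genes did in 49.6% of all genes tested. The 9 microglial markers in the table summed to 11150 and 10910 CPM in ff and 9493 and 9115 in ko, with 2 genes higher (Tmem119 and Aif1) and 1 lower (Cx3cr1). The 6 markers of border-associated macrophages summed to 17320 and 15050 in ff and 11930 and 13570 in ko, with 1 gene, Cd163, lower. The 8 markers of mural cells and fibroblasts summed to 327 and 469 in ff and 702 and 508 in ko, and the 9 neuronal markers to 186 and 209 in ff and 149 and 174 in ko, with none called. Sums of the markers of lymphocytes (139 to 179 CPM), neural progenitors (714 to 964), endothelial cells (45.0 to 98.9) and erythroid cells (18.5 to 24.4) overlapped between groups, with 1 lymphocyte gene, Gzma, higher. Sums are set mostly by the most abundant markers, and list medians of the log2 fold change gave another order. The medians were 0.71 for lymphocytes, 0.54 for endothelial cells and 0.53 for mural cells and fibroblasts. They were 0.03 for microglia and for neural progenitors, -0.15 for erythroid cells, -0.27 for neurons and -0.28 for border-associated macrophages. No marker in the table was at 0 in all libraries. The part of these cells in the differences of Kat2a, Crebbp, Ogt, Phf20 and Brd3 was not tested.

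The calls of Kat2a and Crebbp changed with the setting while their directions did not. Over 11 alternative settings Kat2a had log2 fold changes between 0.41 and 0.62, and Crebbp between -0.71 and -0.35. Among settings with all 4 libraries, Kat2a passed the threshold only without a filter on low counts. Crebbp passed there and with DESeq2. Over all genes these settings called 1386 and 566, against 270 in the reported setting. Calls of Kat2a and Crebbp in fits with 1 library left out are not counted here, since these fits keep 1 library in 1 group. The other 7 genes passed in none of the 11.

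**Figure D5:**
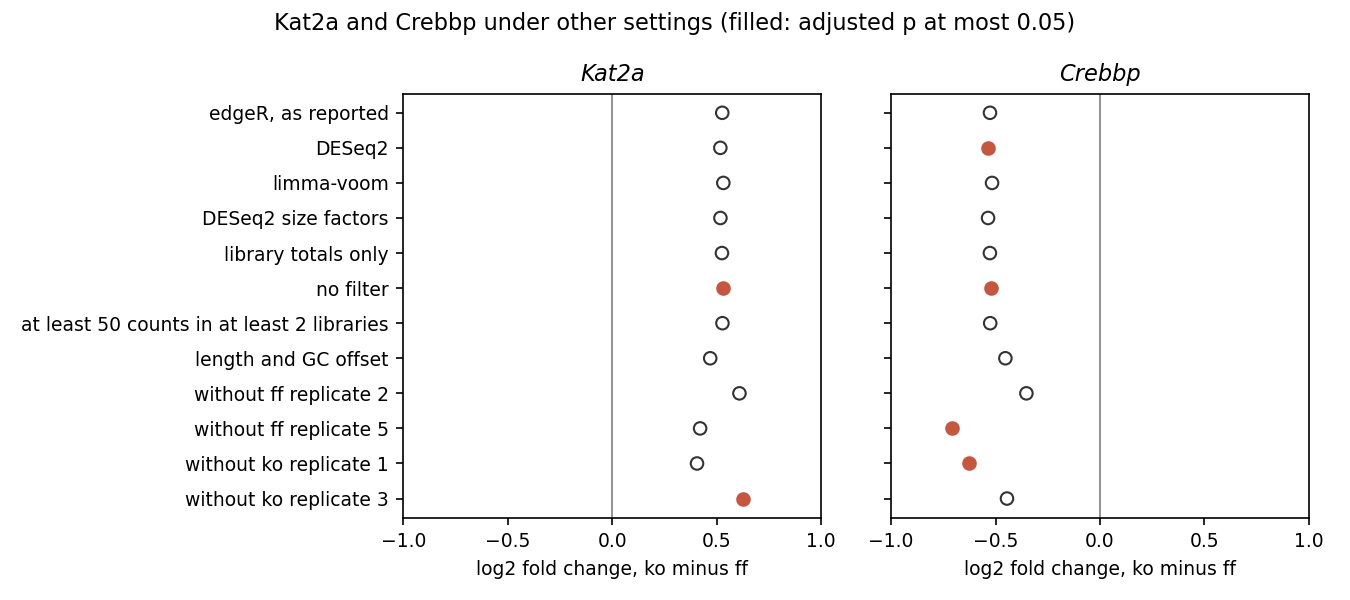
Log2 fold change, ko minus ff (horizontal axes), of Kat2a and Crebbp under the reported setting and 11 alternatives (rows); filled points have an adjusted p of at most 0.05. Kat2a stays between 0.41 and 0.62 and Crebbp between -0.71 and -0.35. Some filled points come from fits with 1 library left out, which keep 1 library in 1 group.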

How the data were processed

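Per the labels' protocols, TRIzol was used for RNA extraction, followed by poly(A) selection. The series' design text names CASAVA for read generation and HISAT2 2.0.5 as the aligner, and the submitters' processing notes name GRCm39. What counted the reads, whether by strand and on which annotation is not given in the sources used here. Raw counts per gene, as whole numbers, are what the authors deposited.

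Of 26054 lines 3 held stray text and were left out. Genes were filtered with edgeR's filterByExpr (15840 genes, 99.85% of counts), scaled by the trimmed mean of M-values and compared by edgeR's quasi-likelihood test with robust priors (edgeR 4.0.16, R 4.3.3). The procedure was tested on simulated data, where it made more false calls than the threshold allows. Adjusted p-values are Benjamini-Hochberg values over all genes tested. Intervals are the log2 fold change plus or minus the t quantile times its SE. Alternatives used DESeq2 1.42.0, limma 3.58.1 (voom), other scaling and filters, each library left out in turn and, chosen after seeing the data, an offset for length and GC content (90.8% of tested genes had both).

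The 9 genes and the lists were chosen with earlier results of these data known. Named genes are the 9, Hat1 and, from each list, up to 4 called genes or, with none, the 2 most expressed. The cell-type markers named with a direction are those past the threshold. Dhx58, Hspb9, Kansl2, Mrgbp, Taf10 and Cited1 fall outside these rules and were chosen after their values were seen. Lengths, strands and promoters are from GENCODE M21 and RefSeq on GRCm38.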

Additional observations from a re-analysis of the deposited data

How the results depend on the processing

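The number of genes past the threshold was 270 and lay between 198 and 1213 when single libraries were left out (198 without ff library 2, 450 without ff library 5, 996 without ko library 1, 1213 without ko library 3). It was 566 with DESeq2 and 1386 without a filter on low counts. Of the 9 acetyltransferase genes 0 passed; 1 passed with DESeq2 (Crebbp), 2 without a filter (Crebbp and Kat2a), and between 0 and 1 with a library left out (Crebbp without ff library 5 or ko library 1, Kat2a without ko library 3). Of the partner genes 3 passed, against 9 without a filter (2 higher and 7 lower) and 1 with the length and GC offset (259 over all genes). Kat7 and Kat8, near 0, changed sign: Kat7 was at -0.0004 with DESeq2, -0.0003 with DESeq2 size factors, -0.0206 with the offset and between -0.0714 and 0.0643 with a library left out, and Kat8 was at -0.11 with the offset and between -0.0397 and 0.0372. With a library left out, Kat2b lay between 0.0448 and 0.2131, Kat5 between -0.2666 and -0.0213, Ep300 between -0.2336 and -0.027, Kat6a between -0.0701 and 0.2192 and Kat6b between -0.2452 and 0.0686. The causes of these changes were not tested. With a library left out, the difference in log2 ratio lay between 0.36 and 0.41 for Kat2a to Kat2b (0.39 with all 4), between 0.0083 and 0.31 for Kat6a to Kat6b (0.16) and between 0.22 and 0.58 for Ep300 to Crebbp (0.40). No paired analysis was possible because the groups share no replicate number. With 2 libraries in each group, differences inside the printed intervals are not shown to be absent.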

Other observations

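The genes given here were singled out after their values were seen. Kansl2, a subunit of the NSL complex that holds Kat8, had 39.1 and 35.8 CPM in ff libraries 2 and 5, 81.2 in ko library 1 and 39.0 in ko library 3. Mrgbp, a subunit of the NuA4 complex that holds Kat5, had 3.00 and 5.40 CPM in ff, 10.9 in ko library 1 and 4.92 in ko library 3. For both genes ko library 3 lay within the range of the ff libraries. Ko library 1, where both were higher, was the library that held the Y-linked transcripts. Neither gene passed the threshold, with edgeR adjusted p-values of 0.498 and 0.395. Taf10 and Cited1 had the highest fitted log2 fold changes of the lists, 1.28 and 1.57, at levels of at most 1.77 and 1.14 CPM, and neither passed (adjusted p of 0.286 and 0.336).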
